A study of Mus musculus with 11 samples.

Results

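Immediate early genes were followed here through MacroH2A2 and H3.3 ChIP-Seq in mouse embryonic stem (ES) cells and mouse embryonic fibroblasts (MEFs). The set was taken by name and holds 10 genes, Fos, Fosb, Jun, Junb, Egr1, Ier2, Atf3, Myc, Dusp1 and Klf6, out of 37273 annotated genes, and each of the 10 names matched 1 protein-coding gene. All 10 lay outside the repeat-like tiles that were discarded, as did 21714 protein-coding genes in all, which serve as the comparison throughout. The question was how the share of HA-tagged histone reads at these promoters changes over hours of induction, and how this differs between a pluripotent and a differentiated cell.

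The 11 libraries came from cells of a 129 X C57bl/6 background, with 1 library per condition. Anti-HA ChIP was done in KH2 ES cells carrying inducible HA-H3.3 after 3 and 6 hours of doxycycline (Dox, 2 μg/ml), in KH2 ES cells carrying inducible HA-MacroH2A2 (HA-Macro) without Dox and after 3, 6 and 12 hours, and in MEFs from HA-MacroH2A2 embryos after 3, 6 and 12 hours. An antibody to MacroH2A2 itself was used, by the labels, in untreated parental KH2 ES cells and wild-type MEFs, and each of these libraries combines 2 replicates. In KH2 cells Dox acts through a transactivator expressed from the Rosa26 locus, and the tagged histone is expressed from a site beside a collagen gene in addition to the endogenous histones. ES cells were grown on feeder MEFs that were depleted by pre-plating, and the HA-Macro MEFs came from chimeric embryos after selection against host cells. The study's own tables and figures describe the genotype and Dox state of the anti-MacroH2A2 cells differently, as HA-Macro cells with and without Dox, so only antibody and cell type are used for them. No RNA was measured in these files. At promoters of 8 ES cell markers, HA-H3.3 reads summed to 16.1 and 26.4 p.p.m. at 3 and 6 hours, against 7.60 and 7.05 p.p.m. at 8 fibroblast markers. Anti-MacroH2A2 in MEFs held 9.71 p.p.m. at the ES cell markers and 3.03 p.p.m. at the fibroblast markers, and in ES cells 8.47 and 8.11 p.p.m., with Dppa4 at 0 reads.

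Immediate early genes are transcribed within minutes of a growth factor, stress or other signal, without the need for new protein synthesis. Many encode transcription factors that then act on later genes, and others encode phosphatases and regulators that end the signal. Their promoters are known to be open and poised in unstimulated cells. MacroH2A2 is a histone H2A variant with a large extra domain, and H3.3 is the H3 variant that is deposited outside replication, above all at active promoters and gene bodies.

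The genes are short, with a median length of 3581 bp against 15691 bp for all protein-coding genes (mm9). Fos, at chr12:86814840-86818223 on the plus strand, and Fosb, at chr7:19888070-19895394 on the minus strand, encode the Fos subunits of the AP-1 transcription factor. Jun (chr4:94715725-94718913, minus) and Junb (chr8:87500811-87502617, minus) encode its Jun subunits. Atf3 (chr1:192994175-193007219, minus) encodes a stress-induced factor of the related ATF family. Egr1 and Klf6 (the latter at chr13:5860735-5869639, plus) encode zinc finger transcription factors, and Myc (chr15:61816946-61821929, plus) encodes the Myc growth regulator. Dusp1 (chr17:26642535-26645464, minus) encodes a phosphatase that inactivates MAP kinases. Ier2 (chr8:87185230-87186751, minus) encodes a small immediate early protein, and its TSS lies 316 kb from that of Junb. The 1.2 kb around the 10 TSSs had a median GC content of 60.2%, against 53.8% over all protein-coding genes, and a median observed over expected CpG of 0.772 against 0.531.

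Of 5 motifs searched on both strands of the 300 bp upstream of each TSS, the CArG box, which binds serum response factor, was found in Fosb and Egr1 and in 1.62% of all 21714 promoters. The cyclic AMP response element TGACGTCA was found in Ier2 and Dusp1 and in 2.02% of all promoters. TATAAA was found in Fos, Junb and Myc (14.8% of all promoters), GGGCGG in all of the 10 genes but Junb (40.6%), and the AP-1 site TGANTCA in none (7.18%). Only exact matches within the 300 bp were counted. Variant or partial sites, such as tgacgta in the Fos sequence below, and sites farther upstream were therefore missed, and a gene without a match may still hold such a site. The promoters of Fos, Fosb, Ier2 and Dusp1 are shown as examples of the motifs, and because the values of Ier2 and Dusp1 stood apart in the HA-Macro time course. They were read from the mm9 (NCBIM37) genome, 5′ to 3′ on the strand of the gene, and end at the base before the TSS. Capitals mark TATAAA in Fos (33 to 28 bp upstream of the TSS), the CArG box in Fosb (272 to 263 bp) and TGACGTCA in Ier2 (45 to 38 bp) and Dusp1 (96 to 89 bp). They cover chr12:86814540-86814839 (plus), chr7:19895395-19895694 (minus), chr8:87186752-87187051 (minus) and chr17:26645465-26645764 (minus), in that order.
Fos: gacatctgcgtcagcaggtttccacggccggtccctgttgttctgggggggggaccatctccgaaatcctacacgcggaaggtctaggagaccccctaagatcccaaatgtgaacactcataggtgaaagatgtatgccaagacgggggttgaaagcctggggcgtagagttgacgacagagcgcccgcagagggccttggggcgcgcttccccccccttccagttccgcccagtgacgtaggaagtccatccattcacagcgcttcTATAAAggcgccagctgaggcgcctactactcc
Fosb: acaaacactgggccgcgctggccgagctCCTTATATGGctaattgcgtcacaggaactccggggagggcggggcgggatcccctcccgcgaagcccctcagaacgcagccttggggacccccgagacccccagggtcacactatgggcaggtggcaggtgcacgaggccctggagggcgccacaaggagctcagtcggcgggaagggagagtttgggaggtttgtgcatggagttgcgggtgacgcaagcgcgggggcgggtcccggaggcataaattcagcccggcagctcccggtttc
Ier2: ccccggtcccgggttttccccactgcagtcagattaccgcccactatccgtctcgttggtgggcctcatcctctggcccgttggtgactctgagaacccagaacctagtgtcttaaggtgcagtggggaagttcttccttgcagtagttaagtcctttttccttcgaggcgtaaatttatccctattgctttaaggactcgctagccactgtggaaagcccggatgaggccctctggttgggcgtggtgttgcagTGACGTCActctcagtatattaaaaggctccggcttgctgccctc
Dusp1: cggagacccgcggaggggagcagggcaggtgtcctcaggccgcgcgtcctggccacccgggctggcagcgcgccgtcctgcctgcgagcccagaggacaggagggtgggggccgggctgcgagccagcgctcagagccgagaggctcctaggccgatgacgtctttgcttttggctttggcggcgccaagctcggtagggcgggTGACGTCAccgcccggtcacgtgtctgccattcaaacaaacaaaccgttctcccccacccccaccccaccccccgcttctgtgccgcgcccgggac

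Libraries held 6448310 to 19869559 distinct mapped intervals on chromosomes 1 to 19, X and Y, and a read below means the midpoint of 1 distinct interval. The promoter window reaches 600 bp from the TSS in both directions, and levels are p.p.m. of the library's distinct intervals, so that 1 read is worth 0.0503 to 0.155 p.p.m. Intervals in brackets are 95% counting intervals, exact Poisson for levels and exact binomial (Clopper-Pearson) for ratios. They cover counting error only, since reads without molecular identifiers are not independent molecules, and with 1 library per condition no difference can be set against a spread between replicates. HA-Macro libraries hold intervals of 150 bp with 3.27% to 6.00% repeated, and the other libraries intervals of 400 bp with 0.464% to 0.694% repeated. The HA-Macro library at 3 hours in ES cells stood apart from the other HA-Macro libraries in 0.112% of its intervals being on chromosome Y. The share was 0.0219% to 0.0244% in the other HA-Macro ES libraries and 0.0198% to 0.0226% in the HA-Macro MEF libraries. It was 0.0673% to 0.102% in the HA-H3.3 libraries and 0.100% with anti-MacroH2A2 in ES cells, so that these shares do not settle which ES libraries are unusual. The main results that rest on the 3 hour library are therefore also given with the library of 6 hours. Because levels are shares of a library, a lower level at a promoter says how the promoter stood relative to the rest of the genome, and not how many tagged nucleosomes it held.

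HA-H3.3 was above the median gene at all 10 promoters in ES cells. Every promoter held more reads than the median protein-coding gene at both times, with levels of 1.55 (Fosb) to 4.19 p.p.m. (Egr1) at 3 hours and 3.38 (Atf3) to 5.82 p.p.m. (Junb) at 6 hours, beside medians over all genes of 1.24 and 1.69 p.p.m. At 3 hours the intervals of Fosb (0.744 to 2.85), Atf3 (0.962 to 3.25) and Fos (1.19 to 3.64 p.p.m.) held the median. At 3 hours 6 of the 10 were above 90% of all protein-coding genes, and at 6 hours 2 were, Jun and Junb. Pooled, the 10 promoters held 190 reads, or 29.5 p.p.m. (25.4 to 34.0), at 3 hours and 459 reads, or 43.1 p.p.m. (39.3 to 47.2), at 6 hours. The log2 ratio of 6 over 3 hours was 0.55 (0.30 to 0.80), and all promoters pooled moved by 0.59 on the same scale. Scaled to the flanks of the same genes in place of the library, it was -0.041, so that the direction held only for shares of the whole library. By a change of at least 1.5 times with 1 read added, 5 of 10 (Fos, Fosb, Junb, Atf3 and Dusp1) were higher at 6 hours, beside 45.7% of all genes tested, so that the share of the 10 genes was near the background. The increase at Fosb and Junb was beyond counting error on its own, with log2 ratios of 1.20 (0.17 to 2.37) and 0.91 (0.16 to 1.71). Egr1 and Myc, highest at 3 hours, had log2 ratios of 0.14 (-0.57 to 0.87) and 0.09 (-0.65 to 0.86).

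**Figure D1:**
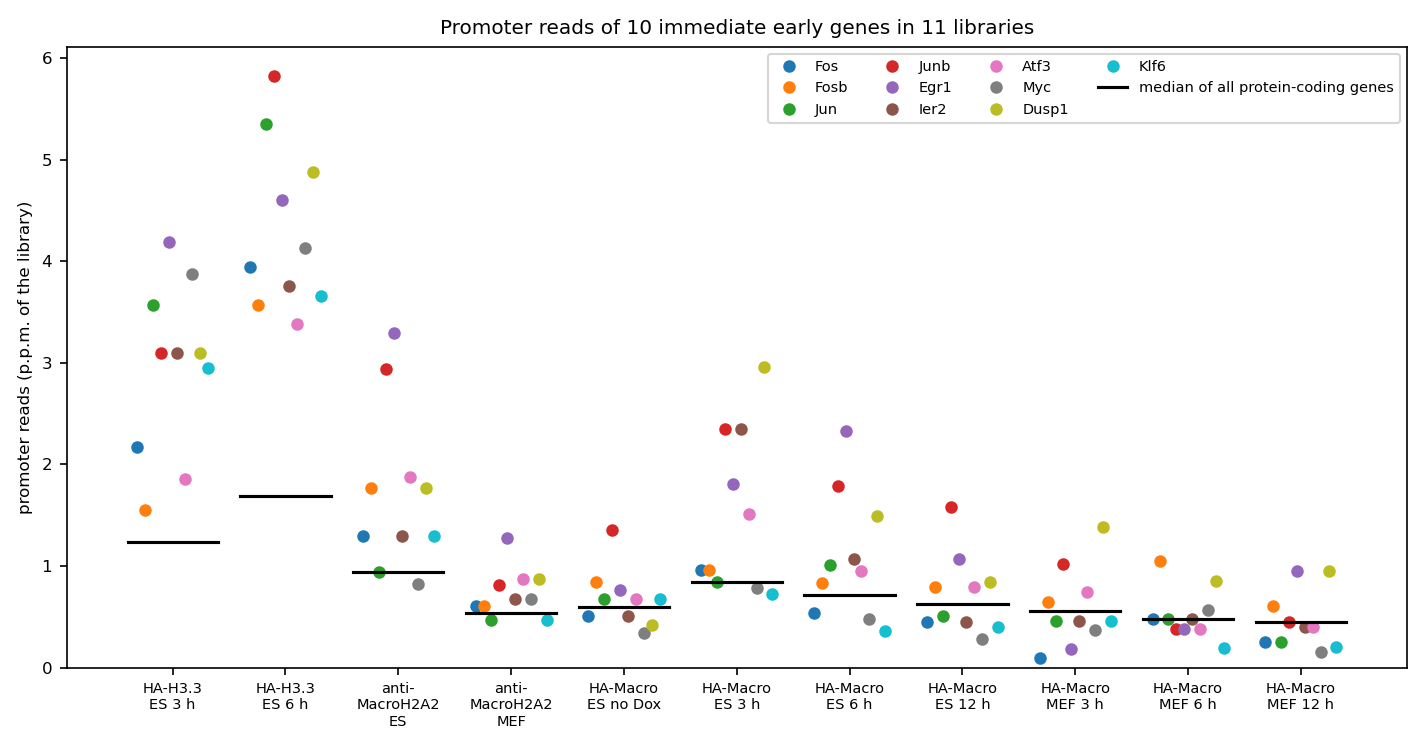
Promoter reads in p.p.m. of each library (y axis) for the 10 immediate early genes (coloured points) in the 11 libraries (x axis), with the median over all protein-coding genes as a black bar. All 10 points lie above the bar in both HA-H3.3 libraries, and 3 of 10 lie above it in HA-Macro MEFs at 12 hours.

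Pooled over these promoters, HA-Macro in ES cells was highest 3 hours after induction and lower at 12 hours. Without Dox the 10 promoters held 80 reads, 6.77 p.p.m. (5.37 to 8.42). They held 253 reads, 15.3 p.p.m. (13.4 to 17.3), at 3 hours, 182 reads, 10.9 p.p.m. (9.34 to 12.6), at 6 hours and 127 reads, 7.18 p.p.m. (5.98 to 8.54), at 12 hours. The pooled level at 12 hours was thus within counting error of the level without Dox, with a log2 ratio of 0.08 (-0.33 to 0.51). The paper describes the uninduced library as mostly flat background, with traces at promoters that it puts down to probable leaky expression or possibly open chromatin. From 3 to 12 hours the pooled log2 ratio was -1.09 (-1.41 to -0.78), and all 10 genes were lower at 12 hours. All promoters pooled moved in the same direction by -0.56 and the median promoter by -0.51, so that the 10 genes stood at -0.53 (-0.85 to -0.22) relative to all promoters. Counted from 6 hours instead, the pooled log2 ratio was -0.60 (-0.94 to -0.26), or -0.34 (-0.68 to -0.0016) relative to all promoters, which moved by -0.26. By at least 1.5 times, 8 of 10 were lower at 12 than at 3 hours, beside 45.7% of all genes tested, 6 of 10 were lower at 6 than at 3 hours, beside 29.9%, and 5 of 10 were lower at 12 than at 6 hours, beside 28.1%.

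The fall was steepest at Ier2 and Dusp1. Both printed promoters hold TGACGTCA, but the motif was taken up after these values had been seen. A link between the motif and the fall was not tested. Ier2 held 2.35 p.p.m. (39 reads) at 3 hours, 1.07 p.p.m. (18 reads) at 6 hours and 0.452 p.p.m. (8 reads) at 12 hours, after 0.508 p.p.m. (6 reads) without Dox. In the other libraries Ier2 held 3.10 and 3.76 p.p.m. of HA-H3.3 at 3 and 6 hours, 1.29 and 0.674 p.p.m. of anti-MacroH2A2 in ES cells and MEFs, and 0.463, 0.476 and 0.403 p.p.m. of HA-Macro at 3, 6 and 12 hours in MEFs. Among the HA-Macro libraries Ier2 was thus highest at 3 hours in ES cells. Its log2 ratio of 12 over 3 hours was -2.38 (-3.69 to -1.26). With 1 read added it was -2.25, and 1.09% of the genes tested had a lower one.

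Dusp1 held 2.96 p.p.m. (49 reads) at 3 hours, which was above 99.1% of all protein-coding genes, 1.49 p.p.m. (25 reads) at 6 hours and 0.848 p.p.m. (15 reads) at 12 hours, after 0.423 p.p.m. (5 reads) without Dox. Elsewhere it held 3.10 and 4.88 p.p.m. of HA-H3.3, 1.76 and 0.877 p.p.m. of anti-MacroH2A2 in ES cells and MEFs, and 1.39, 0.856 and 0.956 p.p.m. of HA-Macro in MEFs. Dusp1, whose product switches off the MAP kinases that induce the set, thus had the highest HA-Macro level of the 10 genes at 3 hours in both cell types. Its log2 ratio of 12 over 3 hours in ES cells was -1.80 (-2.74 to -0.94). For these 2 genes the interval lay below 0, and already from 3 to 6 hours it did, at -1.13 (-2.02 to -0.29) for Ier2 and -0.99 (-1.74 to -0.26) for Dusp1. From 6 to 12 hours, without the 3 hour library, the intervals of both held 0, at -1.25 (-2.66 to 0.02) for Ier2 and -0.82 (-1.84 to 0.16) for Dusp1. Without both genes the pooled log2 ratio of the other 8 was -0.76 (-1.13 to -0.40) from 3 to 12 hours and -0.50 (-0.88 to -0.12) from 6 to 12 hours. Relative to all promoters the other 8 stood at -0.20 (-0.57 to 0.16) and -0.24 (-0.62 to 0.14), so that a fall beyond that of all promoters was not detectable without Ier2 and Dusp1. These 2 had the lowest 12 over 3 hour ratios of the 10, so the excess over those hours was bound to shrink without them.

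Egr1, on chromosome 18, was highest at 6 hours. It held 0.761 p.p.m. (9 reads) without Dox, 1.81 p.p.m. (30 reads) at 3 hours, 2.33 p.p.m. (39 reads) at 6 hours and 1.07 p.p.m. (19 reads) at 12 hours in ES cells. At 6 hours it was above 99.5% of all protein-coding genes, but the step from 3 to 6 hours, at 0.36 (-0.36 to 1.10), was within counting error, and Jun was also highest at 6 hours. The log2 ratio of 12 over 6 hours was -1.12 (-1.99 to -0.29), the only member's for which that interval lay below 0. Egr1 also held 4.19 and 4.60 p.p.m. of HA-H3.3 at 3 and 6 hours, 3.29 and 1.28 p.p.m. of anti-MacroH2A2 in ES cells and MEFs, and 0.185, 0.381 and 0.956 p.p.m. of HA-Macro in MEFs. It was the member with the most anti-MacroH2A2 reads in both cell types.

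Among the AP-1 subunit genes Junb had the highest anti-HA level in HA-Macro ES cells, and this held already without Dox. Junb held 1.35 p.p.m. (16 reads) without Dox, above 98.3% of all protein-coding genes, and then 2.35, 1.79 and 1.58 p.p.m. at 3, 6 and 12 hours, with a log2 ratio of 12 over 3 hours of -0.57 (-1.33 to 0.17). Its rise from no Dox to 3 hours was within counting error. Its other values were 3.10 and 5.82 p.p.m. of HA-H3.3, 2.94 and 0.809 p.p.m. of anti-MacroH2A2 in ES cells and MEFs, and 1.02, 0.381 and 0.453 p.p.m. of HA-Macro in MEFs. Elsewhere Junb did not always lead. Fosb was above it in HA-Macro in MEFs at 6 and 12 hours, at 1.05 and 0.604 p.p.m., and Jun in HA-H3.3 at 3 hours, at 3.57 p.p.m. Junb was the highest member in ES cells without Dox and at 12 hours. Fos held 0.508, 0.965, 0.537 and 0.452 p.p.m. without Dox and at 3, 6 and 12 hours in ES cells. Fosb held 0.846, 0.965, 0.836 and 0.791 p.p.m., and Jun 0.677, 0.844, 1.01 and 0.509 p.p.m. The 12 over 3 hour log2 ratios were -1.09 (-2.53 to 0.21) for Fos, -0.29 (-1.43 to 0.84) for Fosb and -0.73 (-2.12 to 0.58) for Jun, and none of these intervals left out 0. Fosb, a gene best known from neurons, was the flattest of the set.

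Atf3, Myc and Klf6 lay between Dusp1 and Fosb in the ratio of 12 over 3 hours. Atf3 held 0.677, 1.51, 0.955 and 0.791 p.p.m. without Dox and at 3, 6 and 12 hours, with a log2 ratio of 12 over 3 hours of -0.93 (-1.99 to 0.07). Myc held 0.338, 0.784, 0.477 and 0.283 p.p.m., and was the lowest member at 12 hours, with a log2 ratio of -1.47 (-3.31 to 0.11) from 13 and 5 reads. Klf6 held 0.677, 0.724, 0.358 and 0.396 p.p.m., with a log2 ratio of -0.87 (-2.46 to 0.59). In order of the 12 over 3 hour ratio the genes ran from Ier2 through Dusp1, Myc, Fos, Atf3, Klf6, Egr1, Jun and Junb to Fosb, and the intervals of neighbours in this order overlapped.

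**Figure D2:**
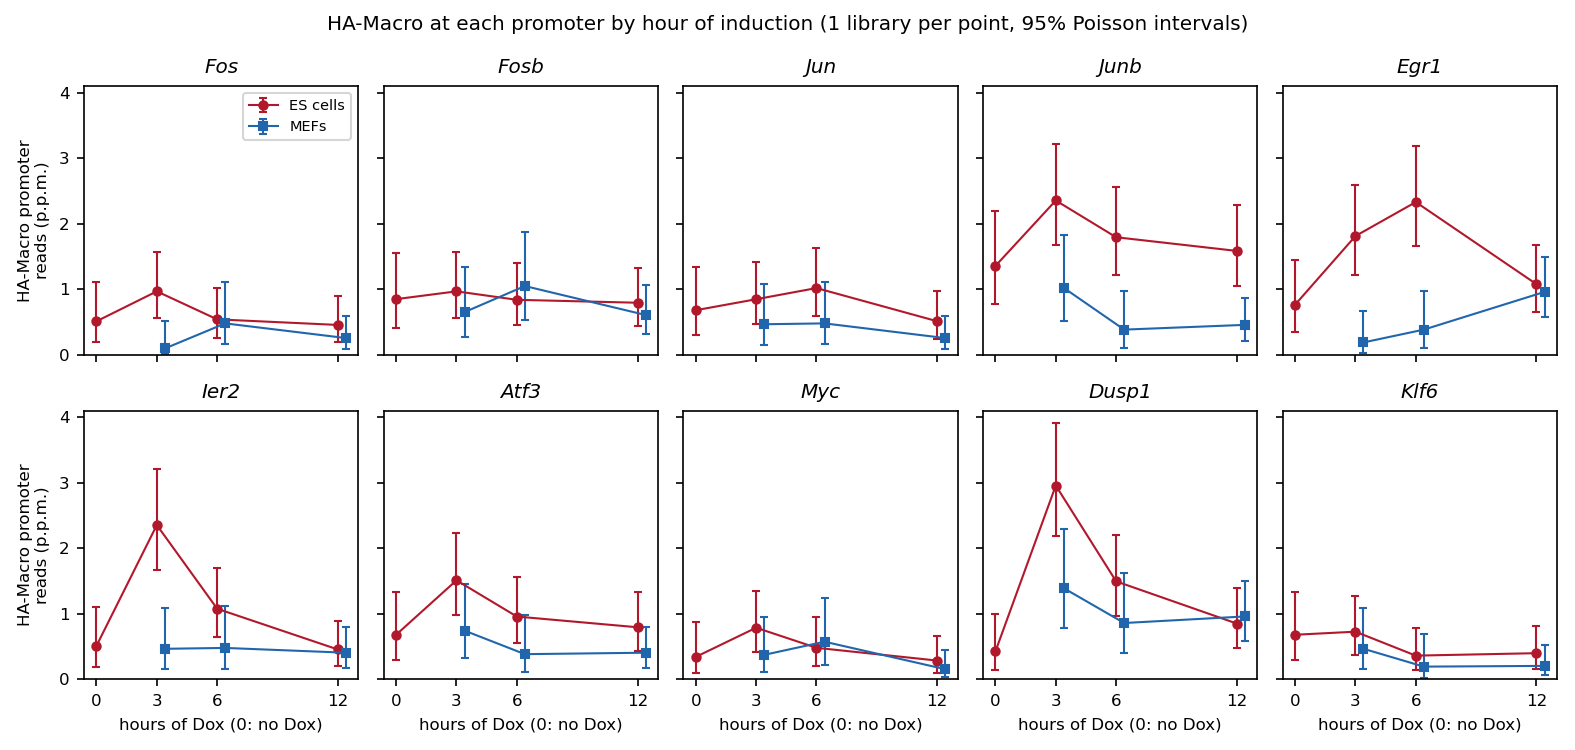
HA-Macro promoter reads in p.p.m. (y axis) against hours of Dox (x axis, 0 for no Dox) in ES cells (red circles) and MEFs (blue squares, drawn slightly to the right), 1 panel per gene, with 95% Poisson intervals. Ier2 and Dusp1 peak at 3 hours in ES cells at 2.35 and 2.96 p.p.m., Egr1 at 6 hours at 2.33 p.p.m., and Fosb in ES cells lies between 0.791 and 0.965 p.p.m. at every hour of Dox.

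HA-Macro at these promoters rose on induction. The pooled log2 ratio of 3 hours over no Dox was 1.17 (0.80 to 1.55), or 0.48 (0.11 to 0.86) relative to all promoters pooled, which moved by 0.70. Without Ier2 and Dusp1 it was 0.77 (0.36 to 1.20), or 0.07 (-0.34 to 0.50) relative to all promoters, so that no excess was detectable in the other genes. The 2 genes left out had the highest ratios, so the excess was bound to shrink without them. With the 6 hour library the pooled ratio of all 10 genes was 0.68 (0.30 to 1.08), or 0.28 (-0.10 to 0.68) relative to all promoters. By at least 1.5 times 7 of 10 were higher at 3 hours than without Dox, beside 48.8% of all genes tested, and Dusp1 at 2.81 (1.48 to 4.49), Ier2 at 2.21 (0.96 to 3.74) and Egr1 at 1.25 (0.14 to 2.51) were higher beyond counting error. At 6 hours 3 of 10 were higher than without Dox by at least 1.5 times and 1, Klf6, was lower, beside 34.7% of all genes tested that were higher and 11.5% that were lower, so that neither share was above the background. Of these Egr1, at 1.61 (0.54 to 2.84), and Dusp1, at 1.82 (0.41 to 3.56), were higher beyond counting error, and Ier2 stood at 1.08 (-0.31 to 2.70). By 12 hours 1 of the 9 with enough reads, Dusp1, was still higher than without Dox by this measure, beside 22.9% of all genes tested, and its interval held 0, at 1.00 (-0.53 to 2.82). Klf6 was lower, beside 15.8% of all genes tested, and its interval held 0 too, at -0.77 (-2.47 to 0.88).

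In MEFs the pooled promoters held a smaller share of HA-Macro reads than in induced ES cells. The 10 promoters held 63 reads, 5.83 p.p.m. (4.48 to 7.46), at 3 hours, 55 reads, 5.23 p.p.m. (3.94 to 6.81), at 6 hours and 92 reads, 4.63 p.p.m. (3.73 to 5.68), at 12 hours. These pooled levels were all below those of induced ES cells at the same hour, with log2 ratios of MEFs over ES cells of -1.39 (-1.81 to -0.99) at 3 hours, -1.05 (-1.52 to -0.61) at 6 hours and -0.63 (-1.03 to -0.23) at 12 hours. They were also below the 6.77 p.p.m. (5.37 to 8.42) in ES cells without Dox, with intervals that overlapped. No MEF library without Dox was analysed, so the background in MEFs is not known here. All promoters pooled were also lower in MEFs, by -0.68, -0.41 and -0.27. Relative to them the 10 genes were lower by -0.71 (-1.13 to -0.31) at 3 hours, by -0.65 (-1.11 to -0.20) at 6 hours and by -0.37 (-0.77 to 0.03) at 12 hours. At 3 hours all 10 genes were lower in MEFs, 8 of them by at least 1.5 times, beside 52.2% of all genes tested. The intervals of Fos, Junb, Egr1, Ier2 and Dusp1 lay below 0, and Fos, with 1 read in MEFs, and Egr1, with 2, had the largest gaps.

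From 3 to 12 hours in MEFs the pooled log2 ratio was -0.33 (-0.81 to 0.15), beside -0.15 for all promoters pooled. Of the 7 genes with at least 10 reads, 3 (Jun, Junb and Atf3) were lower by at least 1.5 times, beside 28.8% of all genes tested, and 1, Egr1, was higher, beside 11.4%. Egr1 held 2 reads at 3 hours, 4 at 6 hours and 19 at 12 hours, with a log2 ratio of 12 over 3 hours of 2.37 (0.32 to 5.52). With 1 read added it was 1.86, higher than in 99.6% of the genes tested. The Egr1 level at 12 hours, 0.956 p.p.m., lay within the interval of Egr1 in ES cells without Dox, 0.761 p.p.m. (0.348 to 1.445). Without Egr1 the pooled ratio of the other 9 was -0.62, and without Junb it was -0.20. It was -0.12 with 300 bp and -0.19 with 1 kb to either side of the TSS, so that its size depended on single genes and on the window. The change from 3 to 12 hours differed between the cell types by 0.76 (0.19 to 1.34) in log2, MEFs minus ES cells. All promoters pooled differed by 0.41 in the same direction, and relative to them the 10 genes stood at 0.34 (-0.23 to 0.93). The difference was 0.39 with all libraries drawn down to a common depth. It was 0.52 without Egr1 and 1.00 without Junb, and 0.42 when counted from 6 hours.

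**Figure D3:**
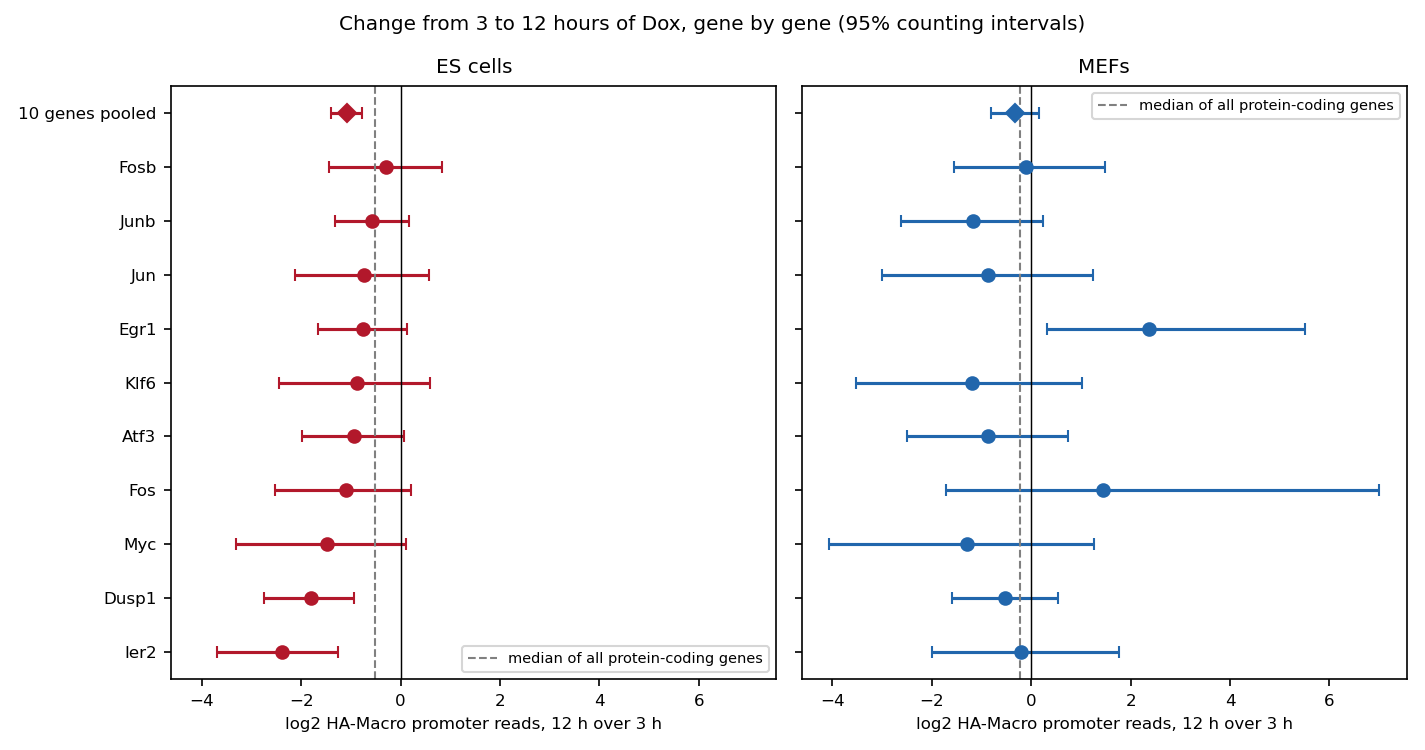
Log2 ratio of HA-Macro promoter reads at 12 over 3 hours (x axis) for each of the 10 genes and for the 10 pooled (diamonds), in ES cells (left) and MEFs (right), with 95% counting intervals; the dashed line is the median of all protein-coding genes. All 10 points are below 0 in ES cells, where the intervals of Ier2 and Dusp1 alone leave out 0, and 8 of 10 are below 0 in MEFs, where that of Egr1, at 2.37, alone leaves out 0.

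Anti-MacroH2A2 reads showed the same order of the cell types. The 10 promoters held 147 anti-MacroH2A2 reads in ES cells, 17.3 p.p.m. (14.6 to 20.3), and 109 in MEFs, 7.35 p.p.m. (6.04 to 8.87), a log2 ratio of MEFs over ES cells of -1.23 (-1.60 to -0.87). The paper holds that MEFs have more MacroH2A2 signal far from promoters, and that scaling therefore overstates such a loss. All promoters pooled were lower by -0.73, which left the 10 genes at -0.50 (-0.88 to -0.14). All 10 genes were lower in MEFs, 9 of them by at least 1.5 times, beside 59.4% of all genes tested, and Myc, at -0.29 (-1.83 to 1.34), was the exception. Junb, at -1.86 (-2.99 to -0.81), Fosb, at -1.54 (-2.91 to -0.25), and Egr1, at -1.36 (-2.28 to -0.47), were lower beyond counting error. In ES cells the member levels ran from 0.823 p.p.m. (Myc) to 3.29 p.p.m. (Egr1), with Junb at 2.94 p.p.m. and Fos, Ier2 and Klf6 all at 1.29 p.p.m. Apart from Egr1 and Junb, the levels in ES cells overlapped in their intervals, and in MEFs, between 0.472 p.p.m. (Jun and Klf6) and 1.28 p.p.m. (Egr1), all did.

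The HA-Macro reads of the 3 hour ES library lay more downstream than upstream of the TSS. From the TSS to 600 bp downstream the 10 genes held 175 of these reads and in the 600 bp upstream 78, a log2 ratio per base of 1.16 (0.77 to 1.57), and from there to 1500 bp downstream they held 237, against 107 at the same distance upstream. The same ratio was 0.74 (0.30 to 1.20) at 6 hours and 1.02 (0.47 to 1.58) at 12 hours, and it was 0.81 (0.13 to 1.52) without Dox, so that the asymmetry was there before induction. All protein-coding genes pooled gave 0.73, 0.54 and 0.54 at 3, 6 and 12 hours and 0.33 without Dox, so that part of the asymmetry was shared by all genes. HA-H3.3 was spread more evenly, at 0.36 (-0.06 to 0.80) and 0.10 (-0.17 to 0.38) at 3 and 6 hours, and anti-MacroH2A2 in ES cells stood at 0.49 (0.0030 to 0.99) and in MEFs at 0.73 (0.15 to 1.32). For all genes the HA-H3.3 values were 0.38 and 0.22 and the anti-MacroH2A2 values 0.76 and 0.54. The HA-Macro intervals are shorter than the others, and the part of that in the shape was not tested.

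**Figure D4:**
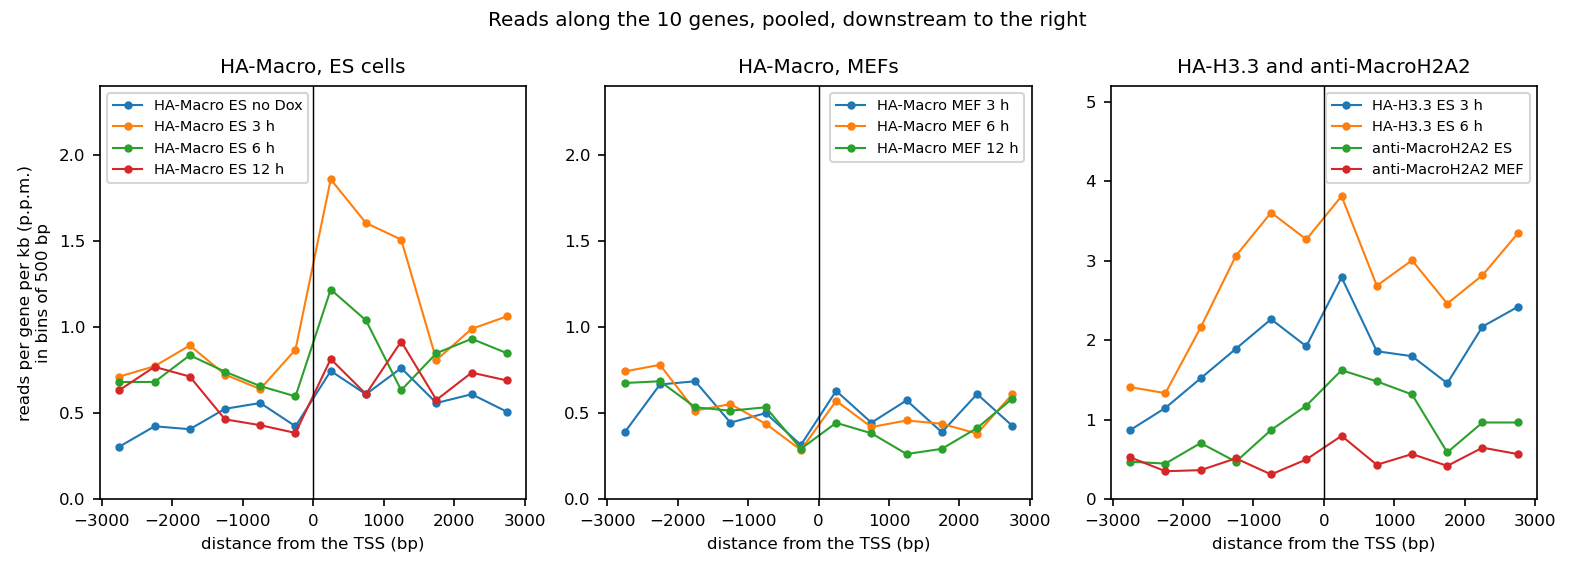
Reads per gene per kb in p.p.m. (y axis) against the distance from the TSS (x axis, 500 bp steps, 3 kb to both sides), pooled over the 10 genes, for HA-Macro in ES cells, HA-Macro in MEFs, and HA-H3.3 with anti-MacroH2A2. The 3 hour ES library is high from the TSS to 1500 bp downstream, where the 12 hour library lies near the library without Dox, and the MEF libraries lie below the 3 hour ES library there.

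Set against the 20 kb on either side of each gene, the 10 promoters pooled were richer in HA-Macro at 3 hours and no longer so at 12 hours in ES cells. Per base, the log2 ratio of promoter over flanks was 0.35 (0.01 to 0.67) without Dox, 1.08 (0.89 to 1.27) at 3 hours, 0.42 (0.20 to 0.64) at 6 hours and -0.14 (-0.40 to 0.12) at 12 hours in ES cells. For all protein-coding genes pooled the values were 0.31, 0.72, 0.45 and 0.20. The 10 genes thus began level with other genes, stood above them at 3 hours, were level with them at 6 hours and lay below them at 12 hours. The excess over other genes therefore rests on the 3 hour library. Junb did not show this course, at 1.20 (0.37 to 1.93) without Dox, 0.79 (0.29 to 1.25) at 3 hours and 1.04 (0.43 to 1.59) at 12 hours, with overlapping intervals. From 3 to 12 hours its log2 ratio was -0.57 at the promoter and -0.82 in the flanks. The intervals of Fosb, Myc and Klf6 held 0 at 3 hours. In MEFs the values were -0.28 (-0.67 to 0.08), -0.50 (-0.91 to -0.12) and -0.74 (-1.06 to -0.45) at 3, 6 and 12 hours, against 0.30, 0.25 and 0.13 for all genes. At 12 hours the promoters of Fos, Jun, Atf3, Myc and Klf6 lay below their own flanks in MEFs with intervals below 0, Myc lowest at -2.19 (-4.48 to -0.64) from 3 reads. Anti-MacroH2A2 gave 1.32 (1.06 to 1.56) in ES cells and 0.22 (-0.06 to 0.50) in MEFs, against 0.93 and 0.43 for all genes. HA-H3.3 gave 1.66 (1.44 to 1.87) and 1.62 (1.48 to 1.75) at 3 and 6 hours, against 1.22 and 1.53. By gene, HA-H3.3 at 6 hours stood highest at Jun, at 3.57 (3.10 to 4.01), and lowest at Ier2, at 0.48 (-0.01 to 0.94), and at Junb, at 0.88 (0.49 to 1.25), the genes whose flanks held the most HA-H3.3.

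**Figure D5:**
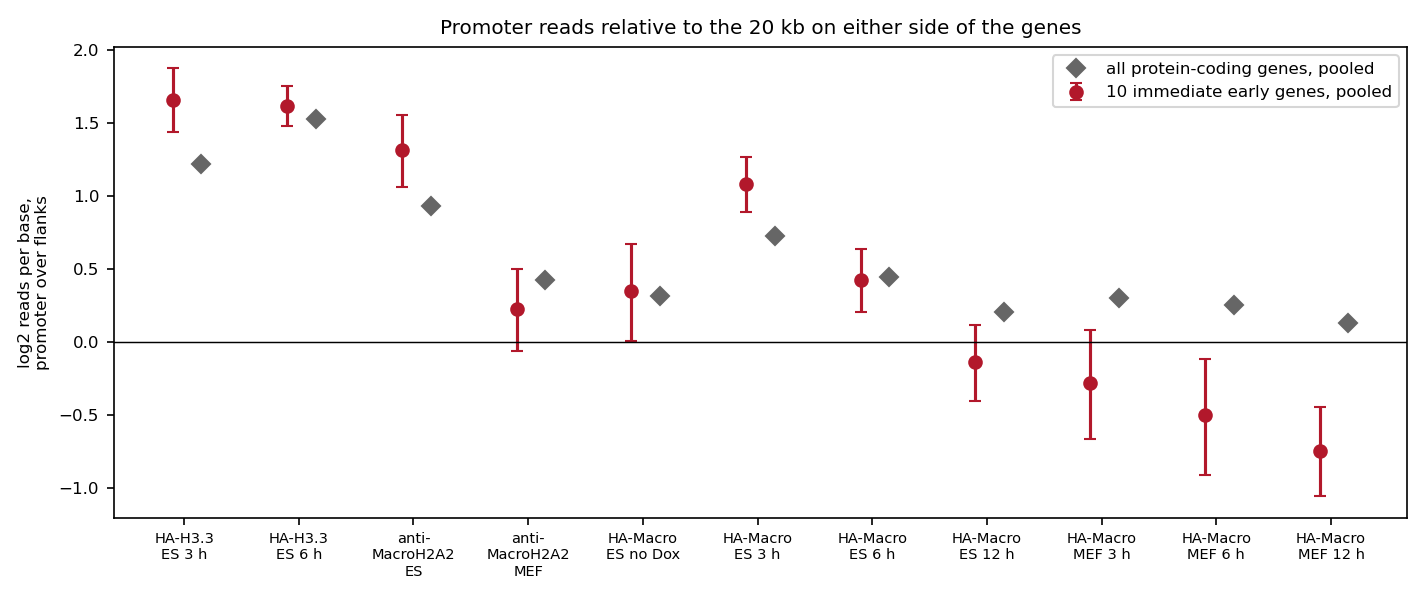
Log2 ratio of reads per base in the promoters over those in the 20 kb flanks (y axis) in the 11 libraries (x axis), for the 10 immediate early genes pooled (red circles with 95% counting intervals) and for all protein-coding genes pooled (grey diamonds). The 10 genes lie above all genes in HA-Macro ES cells at 3 hours, at 1.08 against 0.72, and near them at 6 hours, at 0.42 against 0.45. They lie below all genes at 12 hours and in all 3 HA-Macro MEF libraries.

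The flanks of the genes went the opposite way to their promoters, save at the pair on chromosome 8 and at Jun, at 0.08 (-0.18 to 0.34). Pooled flanks held 236 p.p.m. at 3 hours (3920 reads) and 259 p.p.m. at 12 hours (4582 reads) in ES cells, a log2 ratio of 0.13 (0.07 to 0.19), while the whole genes, which share their first 600 bp with the promoter window, changed by -0.64 (-0.80 to -0.48). The flanks of Fos, Fosb, Egr1, Atf3, Myc, Dusp1 and Klf6 rose beyond counting error, Dusp1 most, at 0.77 (0.57 to 0.96), beside the fall at its promoter. The flanks of Junb and Ier2 fell, by -0.82 (-0.99 to -0.65) and -0.80 (-0.98 to -0.62). These were also the flanks with the most HA-H3.3, 103.5 and 88.2 p.p.m. at 6 hours against 14.8 to 45.6 p.p.m. at the other 8 genes. The flanks of Junb hold the TSSs of Rnaseh2a, Prdx2 and Hook2, and those of Ier2 hold the TSS of Gm2529, so that promoters of other genes are counted in them. Other TSSs also lie in flanks that did not fall, 4 at Jun, 2 at Atf3 and 1 each at Egr1 and Fosb. Of all these TSSs, the 3 at Junb and 1 each at Atf3 and Egr1 belong to protein-coding genes, and none at Ier2, Jun or Fosb does. What these promoters contribute to the changes in the flanks was not tested. Counted from 6 hours the pooled flanks stood at -0.04 (-0.10 to 0.02), and of the 7 that rose only Fosb, at 0.20 (0.03 to 0.37), and Dusp1, at 0.17 (0.0018 to 0.34), still did, while those of Myc and Klf6 fell. Over the same hours the flanks of Junb fell again, by -0.28 (-0.46 to -0.09), whereas those of Ier2 stood at -0.14 (-0.34 to 0.05). Over the whole gene, Junb fell from 88 to 35 reads between 3 and 12 hours (-1.42, -2.03 to -0.84), Ier2 from 81 to 23 (-1.91, -2.65 to -1.23), Dusp1 from 89 to 33 (-1.52, -2.15 to -0.93) and Myc from 108 to 48 (-1.26, -1.79 to -0.76). Jun, at -0.81 (-1.47 to -0.17), and Klf6, at -0.65 (-1.19 to -0.12), fell as well. The intervals of Jun, Junb, Myc and Klf6 thus lay below 0 over the gene and held 0 at the promoter, where reads were fewer. This is not a difference between the regions, as the promoter log2 ratios were -0.73 for Jun, -1.47 for Myc, -0.87 for Klf6 and -0.57 for Junb. Over the gene, the intervals of Egr1, with 82 and 63 reads, Fos, with 43 and 48 reads, Fosb, with 76 and 103, and Atf3, with 99 and 109, held 0. From 6 to 12 hours the whole genes changed by -0.24 (-0.41 to -0.07), and Dusp1, at -0.71 (-1.39 to -0.05), was the only gene whose interval left out 0.

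A further 47 immediate early genes were counted in the same way. Of these, 44 had enough reads, and 31 were lower by at least 1.5 times from 3 to 12 hours in ES cells, beside 45.7% of all genes tested, and 3 (Sgk1, Egr2 and Nfkbiz) were higher, beside 11.2%, with a median log2 ratio, 1 read added, of -0.95 against -0.84 for the 10 genes and -0.51 for all genes tested. Among those with at least 20 reads over both libraries the lowest were Egr3 (16 and 4 reads, -2.09, -4.13 to -0.46), a relative of Egr1, Mcl1 (49 and 13 reads, -2.01, -3.01 to -1.10), a survival protein of the Bcl2 family, and Fosl2 (28 and 8 reads, -1.90, -3.25 to -0.73), a further Fos subunit. The highest were Sgk1 (7 and 16 reads, 1.10, -0.26 to 2.62), a kinase, Egr2 (15 and 25 reads, 0.64, -0.34 to 1.67) and Npas4 (17 and 21 reads, 0.21, -0.78 to 1.22), a neuronal transcription factor, none of which rose beyond counting error. From 6 to 12 hours Egr3, with 4 and 4 reads, and Mcl1, with 15 and 13, had intervals that held 0, and Fosl2, with 19 and 8, stood at -1.33 (-2.73 to -0.07). Of the other immediate early genes 19 of 43 tested were lower over these hours, beside 28.1% of all genes. From 3 to 6 hours 15 of 44 were lower, beside 29.9% of all genes and 6 of the 10, and with anti-MacroH2A2 28 of 43 were lower in MEFs than in ES cells, beside 59.4% and 9 of the 10. Of the Rpl and Rps genes, which are transcribed steadily and at high rate, 65 of 75 tested were lower from 3 to 12 hours, beside 45.7% of all genes, with a median of -1.44, so that the 10 immediate early genes lay between the median gene and the ribosomal protein genes. This order was not seen from 6 to 12 hours, where the medians were -0.46 for the 10 genes, -0.47 for the other immediate early genes, -0.42 for the Rpl and Rps genes and -0.25 for all genes. From 3 to 12 hours in MEFs the medians were -0.56 for the 10 genes, -0.46 for the other immediate early genes, -0.56 for the Rpl and Rps genes and -0.22 for all genes. The 437 other promoters with TGACGTCA, a set chosen after the values of Ier2 and Dusp1 had been seen, had a median of -0.90 in ES cells, and 66.4% of those tested were lower by at least 1.5 times, beside 45.7% of all genes. From 6 to 12 hours they had a median of -0.35 and 136 of 412 were lower, beside -0.25 and 28.1% for all genes, which was near the background. From 3 to 12 hours in MEFs they had a median of -0.39 and 128 of 319 were lower, beside -0.22 and 28.8% for all genes. In ES cells over those hours, 2 sets not chosen by the motif had lower medians than -0.90. They were the other immediate early genes, at -0.95, and the Rpl and Rps genes, at -1.44. A link to the motif was not tested.

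Across the 11 libraries, with each library centred on the median of all protein-coding genes, the mean of the 10 promoters was highest with HA-H3.3, at 1.10 and 1.28 in log2 at 3 and 6 hours, followed by anti-MacroH2A2 in ES cells at 0.69 and HA-Macro in ES cells at 3 hours at 0.65. It was at or below the median gene in HA-Macro MEFs, at -0.17, 0.02 and -0.17. In HA-Macro ES cells it was near the median gene without Dox, at 0.09, and at 12 hours, at 0.04. As a description, the Pearson correlation of each gene with the mean of the other 9 over the 11 libraries ran from 0.23 for Fosb and 0.38 for Dusp1 to 0.83 for Ier2. The non-member genes most like the set were Map3k7, Scd1, Neo1, Zfp341 and Jhdm1d, with r of 0.971 to 0.976 among 12047 genes with enough reads. The libraries share scaling, and the antibody and interval length differ between the groups of libraries that set these correlations.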

How the data were processed

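ChIP-Seq of HA-H3.3, HA-MacroH2A2 and MacroH2A2 was analysed in 11 libraries, 1 per condition, grouped by the sample labels. The authors merged identical reads, aligned them with Bowtie (version 1.0 in the submitters' processing notes) to mm9 with at most 1 mismatch, placed a read with several locations at 1 of them drawn at random, and lengthened each toward its 3′ end. The deposited files hold the resulting intervals on mm9, in no normalized unit and without strand or a column of occurrences.

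From these, the midpoints of distinct intervals (chromosomes 1 to 19, X and Y) were counted with Python 3.11.15, numpy 2.4.6, pandas 2.3.3 and scipy 1.17.1 around GENCODE TSSs (NCBIM37): in the promoter (600 bp either side), the whole gene and the 20 kb beyond either end of it without the promoter window, each library being scaled to its distinct intervals. Genes in the 1% of 100 kb tiles with the most no-Dox reads (264 of 26427) were left out of the comparison set. Calls of at least 1.5 times used 1 added read and at least 10 reads over both libraries. Counting code was tested on simulated data. No test across samples was run and no p-value is given, since each condition has 1 library. The depth of 6448310 to 19869559 intervals leaves single promoters with wide counting intervals.

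The members and the lists were chosen with earlier results of these data known. A list that holds a withheld item is not reported here. Named genes are all 10 members, the 3 highest and 3 lowest other immediate early genes by HA-Macro 12 over 3 hours in ES cells among those with at least 20 reads over both libraries, the 5 genes with the highest correlation to the members' mean among those with at least 10 reads per library on average, and neighbours whose TSS lies in a flank that a result turns on. Alternatives were other counting, windows, scaling, depth and pooling, and leaving out each of the 10 genes in turn. Promoter sequences came from the NCBIM37 genome. HA-Macro MEFs without Dox were not analysed here. Figures were drawn with matplotlib 3.10.9.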

Additional observations from a re-analysis of the deposited data

Results flagged for a closer look

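The promoters of Fos and Egr1 were set aside because their HA-Macro levels moved in opposite directions in the cell types between 3 and 12 hours of Dox, down in the ES libraries and up in the MEF libraries. For Fos, which encodes an AP-1 subunit, the log2 ratio was -1.09 in ES cells (16 and 8 reads) and 1.44 in MEFs (1 and 5 reads), and the difference, MEFs minus ES cells, was 2.54 (-0.88 to 8.28). For Egr1, a zinc finger transcription factor, it was -0.75 in ES cells (30 and 19 reads) and 2.37 in MEFs (2 and 19 reads), a difference of 3.12 (0.89 to 6.40). The 12 hour level of Egr1 in MEFs, 0.956 p.p.m., lay within its interval in ES cells without Dox, 0.348 to 1.445 p.p.m. The intervals cover counting error only, and with 1 library per condition neither difference was tested. The other 8 genes had the same sign in both cell types, and the difference of Ier2 was 2.18 (0.07 to 4.53).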

How the results depend on the processing

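Of 201 recalculations of the 10 pooled results, 189 stayed within the counting interval of the value reported. Each result was also recalculated without each of the 10 genes in turn. Those values share most reads with the one reported, so the count of 189 was partly built in. With each library scaled to the flanks of the same genes, HA-H3.3 at 6 over 3 hours changed sign to -0.041, the flanks having risen as well, and HA-Macro at 3 hours over no Dox was 0.74. Dividing by the same ratio without Dox put promoter over flanks at 0.97 for anti-MacroH2A2 in ES cells, 0.74 for HA-Macro at 3 hours and 1.27 for HA-H3.3 at 6 hours. The last was 1.84 as a mean over genes, 1.47 without Jun, 1.77 without Junb and 1.79 without Ier2. With 6 hours used for 3 hours, an alternative chosen after seeing the data, HA-Macro in ES cells was -0.60 for 12 hours over the earlier time, 0.68 over no Dox and 0.42 for promoter over flanks. Other alternatives kept 12 over 3 hours in ES cells between -1.22 and -0.86. For MEFs over ES cells with anti-MacroH2A2 they gave -1.46 to -1.09. The TSS shared by the most transcripts was the one used for all 10 genes. Each condition has 1 library, so replicates could not be paired. HA-Macro in ES cells and MEFs shares the hours 3, 6 and 12, but no test paired by hour was run. With 1 to 49 HA-Macro reads per promoter, depth limits every single-gene value.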
